A study of Heliocidaris erythrogramma with 5 samples.

Results

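*hey* encodes a basic helix-loop-helix repressor with an Orange domain, a relative of the hairy and Enhancer-of-split proteins. In many animals its family is transcribed when the Notch receptor is cleaved after binding Delta or Serrate on a neighbouring cell, and its proteins hold back other regulators of cell fate, among them proneural genes. Gene models were chosen by name: every feature whose symbol was Sp-Hey, with or without a copy suffix, was taken and each model was kept apart. The rule found 3 of the 38707 features, HER_22363.t1, HER_22398.t1 and HER_37767.t1. The models were picked out with their courses over age already known, so the levels, shares and co-detection below are descriptions and carry no test. Whether the 3 models are 3 loci, alleles or parts of one another is not stated in the sources used here. Reads that fit several near-identical models may have been shared out or dropped in counting, so each model is uncertain on its own.

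The samples were whole larvae of *Heliocidaris erythrogramma* (*He*), a sea urchin whose larva does not feed and builds the adult rudiment early. Larvae were dissociated in cold glycine and EDTA, fixed in methanol and profiled by 10x Chromium 3' single-cell RNA sequencing at 36, 42, 48, 56 and 60 hours post fertilization (hpf), with 1 library at each age. The larvae carried no treatment or genotype, and every library pools the cells of many cell types. The library labelled 56 hpf is given as 54 hpf elsewhere in the study's record, and it is called 56 hpf here as in its label.

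After the study's cell filter 26740 of 26781 barcodes were kept, between 4080 and 8972 in each library. Median depth ranged from 814 to 1634.5 unique molecular identifiers (UMIs) per cell, with the 56 hpf library the shallowest and the 42 hpf library the deepest. Among the kept cells 71 barcodes occurred in more than 1 library, and 3 of the cells with such a barcode held a *hey* UMI. With 1 library at each age there is no replicate check of any difference between ages, and age cannot be told apart from library. Intervals are 95% and cover counting error only.

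HER_22398.t1 and HER_22363.t1 were highest at 42 hpf and nearly gone at 60 hpf, while HER_37767.t1 was low up to 48 hpf and highest at 60 hpf. HER_22398.t1 had 338, 567, 191, 74 and 31 UMIs at 36, 42, 48, 56 and 60 hpf. After division by library size factors these became normalized counts of 308.5, 538, 251, 105 and 19.3, with intervals of 494 to 584 at 42 hpf and 13.1 to 27.3 at 60 hpf. The order of the 5 levels was 42, 36, 48, 56 and 60 hpf, and the only intervals that overlapped were those at 36 hpf (276.5 to 343) and 48 hpf (216 to 289).

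HER_22363.t1 followed the same course with fewer UMIs, 49, 110, 38, 17 and 2. Its normalized counts were 44.7, 104, 49.8, 24.1 and 1.24. The intervals at 36 hpf (33.1 to 59.1), 48 hpf (35.3 to 68.4) and 56 hpf (14.0 to 38.6) overlapped, and those at 42 hpf (85.7 to 126) and 60 hpf (0.150 to 4.49) stood apart from them. The level at 60 hpf rested on 2 UMIs in 2 cells, both deep, with a median of 6019.5 UMIs.

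HER_37767.t1 had 54, 29, 22, 74 and 353 UMIs, or normalized counts of 49.3, 27.5, 28.9, 105 and 219. Its levels at 42 hpf and 48 hpf could not be told apart, with a ratio of 1.05 (0.575 to 1.89). From 48 hpf on it was higher at each later age, and at 56 hpf it had the same number of UMIs as HER_22398.t1. The 3' counts are not divided by transcript length, so only the courses over age are compared between models, not their absolute levels.

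Between 36 and 60 hpf the level of HER_22398.t1 became 16-fold lower (11.1 to 24.0), a difference of -3.93 on the log2(normalized count + 1) scale. For HER_22363.t1 the ratio of 36 to 60 hpf was 36.0 (9.45 to 306), and for HER_37767.t1 the level at 60 hpf was 4.45-fold that at 36 hpf (3.33 to 6.04). Features were compared where their mean normalized count reached 10, which 14085 did. A difference of 2-fold or more was seen upward at 60 hpf in 1439 (10.2%) and downward in 1691 (12%). All 3 *hey* models passed that filter, 1 among the higher and 2 among the lower, and since the models were chosen with this contrast known nothing is read from that count. The median log2 difference over all tested features was -0.01.

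The steps were uneven. From 36 to 42 hpf HER_22398.t1 was 1.74-fold higher (1.52 to 2.0) and HER_22363.t1 2.33-fold higher (1.65 to 3.34), while HER_37767.t1 was 1.79-fold lower (1.12 to 2.92). Between 56 and 60 hpf HER_22398.t1 became 5.45-fold lower (3.54 to 8.58). HER_37767.t1 was 3.64-fold higher (2.23 to 6.15) at 56 than at 48 hpf and 2.09-fold higher (1.62 to 2.72) at 60 than at 56 hpf. The ages are not evenly spaced, so the folds of these steps are not rates.

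**Figure D1:**
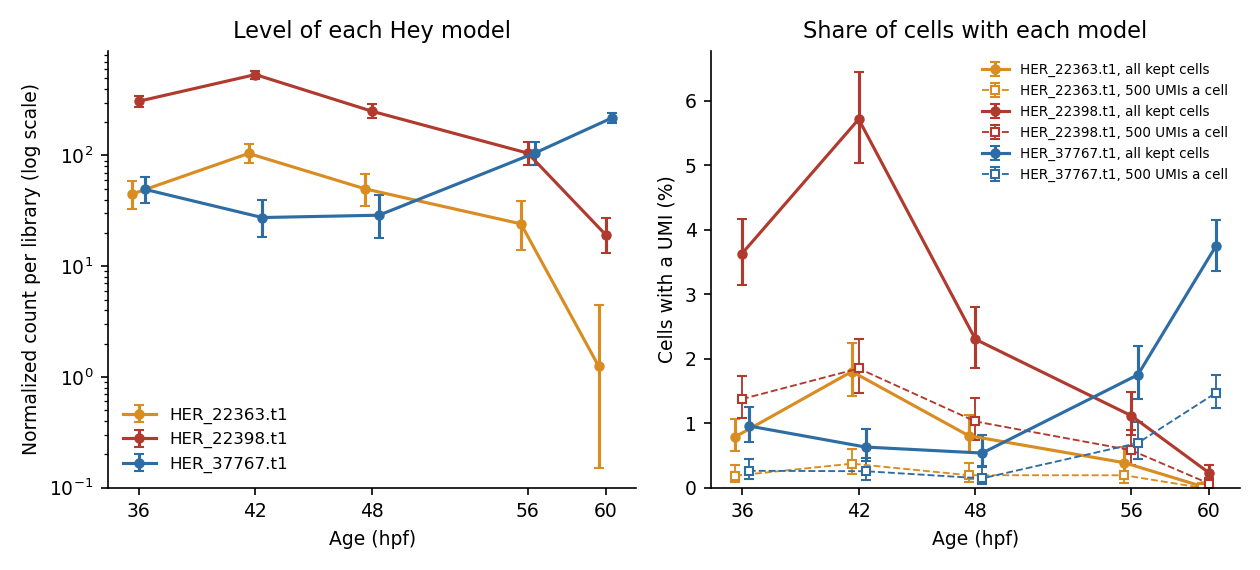
Left, normalized count of each *hey* model (log axis) against age in hpf, and right, percent of cells with at least 1 UMI, over all kept cells (filled) and after every cell was thinned to 500 UMIs (open), with 95% counting intervals. HER_22363.t1 and HER_22398.t1 peak at 42 hpf, and HER_37767.t1 climbs from 48 to 60 hpf.

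The share of cells with a UMI moved with the level. HER_22398.t1 was detected in 193, 244, 94, 46 and 21 cells, or 3.63%, 5.72%, 2.30%, 1.12% and 0.234% of each library. HER_22363.t1 was detected in 42, 77, 33, 16 and 2 cells, a largest share of 1.80% at 42 hpf. HER_37767.t1 was detected in 51, 27, 22, 72 and 336 cells, from 0.539% at 48 hpf to 3.74% (3.36 to 4.16) at 60 hpf.

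Depth differed between libraries, so every cell was also thinned to 500 UMIs and the 520 shallower cells, 509 of them at 56 hpf and 11 at 36 hpf, were left out. HER_22398.t1 was then found in 1.38%, 1.85%, 1.03%, 0.584% and 0.0669% of cells, the same order of ages. HER_37767.t1 was then found in 0.264%, 0.258%, 0.147%, 0.695% and 1.47%. HER_22363.t1 was left with 10, 16, 8, 7 and 0 cells, too few to order the ages, and 0 of 8972 cells at 60 hpf leaves room for a share of up to 0.0411%.

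The models also differed in how many molecules a positive cell held. HER_22398.t1 reached 12 UMIs in 1 cell and 140 of its 598 cells held at least 3. Its cells held 1.75 UMIs on average at 36 hpf, 2.32 at 42 hpf and 1.48 at 60 hpf. HER_37767.t1 never exceeded 2 UMIs in a cell, and 95.3% of its 508 cells held a single UMI. Cells with HER_22398.t1 had a median depth of 2206.5 UMIs, against 1129 in cells without it, while cells with HER_37767.t1 had 1357.5 against 1141.

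HER_22363.t1 and HER_22398.t1 were found in the same cells. Of the 170 cells with HER_22363.t1, 122 also held HER_22398.t1 (71.8%), and these made up 20.4% of the HER_22398.t1 cells. If the 2 models had been independent within each library, 6.87 cells with both would have been counted, a ratio of observed to expected of 17.8 (14.7 to 21.2). Both were found together in 28, 63, 21, 8 and 2 cells at the 5 ages, so cells with both occurred in every library.

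Deeper cells hold more UMIs of any gene, and cells with *hey* were deeper than the rest. When the expected number was taken within 10 equal bins of cell depth in each library, it was 11.8 and the ratio was 10.3 (8.58 to 12.3). Without the deepest 5% of cells in each library the ratio was 18.6, and after thinning to 500 UMIs 13 cells held both against 0.557 expected. Doublets were neither called nor removed, and their part was not tested. When the expected number was taken within clusters of each library, an alternative added after the first values were seen, it was 50.6 and the ratio 2.41 (2.0 to 2.88). Cells with both models were thus still more than expected among cells of the same cluster, with depth not held equal. Cluster and depth were not held fixed together, so the part of depth in that ratio was not tested.

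Within HER_22398.t1 cells, detection of HER_22363.t1 was higher with the number of HER_22398.t1 UMIs. It was 0.184% of the 26142 cells without HER_22398.t1, 12% of the 326 cells with 1 UMI and 22.7% of the 132 cells with 2. It was 34.1% (24.4 to 44.7) of the 91 cells with 3 to 4 UMIs and 44.9% (30.7 to 59.8) of the 49 cells with 5 or more. The median depths of these 5 sets were 1129, 2088, 2087, 2421 and 2632 UMIs. Detection was not compared at equal depth, cluster or age across the sets, so the part of these was not tested.

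**Figure D2:**
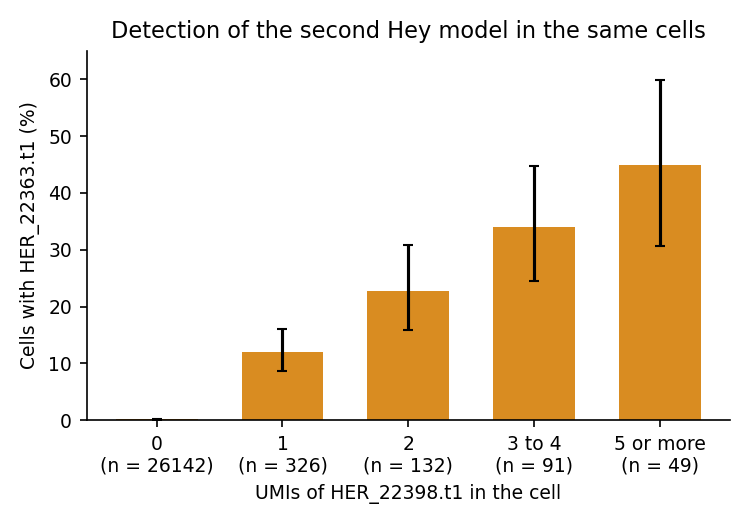
Percent of cells with at least 1 UMI of HER_22363.t1 (bars, with 95% exact binomial intervals) against the number of HER_22398.t1 UMIs in the same cell, over all 5 libraries. Detection climbs from 0.184% of cells with none to 44.9% of cells with 5 or more.

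HER_22363.t1 supplied 12.7%, 16.2%, 16.6%, 18.7% and 6.06% of the summed UMIs of the 2 models at the 5 ages, and 15.2% (13.4 to 17.2) over all. The 5 intervals overlapped, and the last value rested on 33 UMIs. The split of counts between the 2 models was therefore not seen to differ between ages at this depth.

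HER_37767.t1 was seldom seen with the other 2. Of the 646 cells with HER_22363.t1 or HER_22398.t1, 1 also held HER_37767.t1, against 5.92 expected within libraries and 7.23 within the bins of depth. Within clusters of each library 2.26 were expected, a ratio of 0.443 (0.0112 to 2.47), so among cells of the same cluster a shortfall was not detectable. That cell, at 36 hpf, held all 3 models. In all 1153 cells held a *hey* UMI.

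To see which cells held each model, the cells were grouped into 50 clusters with every *hey* model left out of the clustering genes. Genes of the cells clustered define the clusters, so what follows describes them and tests nothing. HER_22398.t1 and HER_22363.t1 had the same 3 leading clusters, called here by number and by the genes highest in each. Cluster 13 (878 cells) was led by *acsc*, a proneural achaete-scute type gene, *tll*, the T-box gene *tbx6/16* and *snail*, which encodes a zinc finger repressor. Cluster 20 (555 cells) was led by *neurod*, *phox2*, *scratch* and *isl*, which in many animals act in differentiating neurons. Cluster 33 (277 cells) was led by *cyp27L*, *dmrt*, *giant* and *evi1*.

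These 3 clusters held 6.39% of all cells but 483 of the 598 HER_22398.t1 cells (80.8%, 77.4 to 83.9) and 86.6% of its UMIs. They held 151 of the 170 HER_22363.t1 cells (88.8%, 83.1 to 93.1). HER_22398.t1 reached 249 CPM (CPM is the model's share of all UMIs in the cells, scaled to a fixed total) in cluster 13, 417 CPM in cluster 20 and 165 CPM in cluster 33. In the other 47 clusters together it was at 4.62 CPM, with a UMI in 0.459% of 25030 cells.

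Of the 4 marker genes that the study used for its putative rudiment ectoderm, *giant*, *b4galt6-3*, *acsc* and *smadip*, 3 were at least 2-fold higher and found in at least 5% of cells in clusters 13 and 20, and 2 in cluster 33. Cluster 20 was led by neuronal regulators rather than by those markers, so no cell type name is given to it. In cluster 7, led by *egfi* and *fn3/egf-2*, which the study used as markers of verified rudiment ectoderm, HER_22398.t1 was found in 10 of 1076 cells (0.929%).

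HER_37767.t1 was found more widely. It was found in 45 of the 50 clusters, against 35 for HER_22398.t1 and 16 for HER_22363.t1. The 3 leading clusters of HER_37767.t1 (17, 11 and 9) held 20.1% of its cells against 9.27% of all cells. Those clusters were mostly 60 hpf cells, and at 60 hpf alone they held 28.6% (23.8 to 33.7) of its cells against 24.7% of the library. In clusters 13, 20 and 33 it was found in 2, 1 and 2 cells. Over all ages HER_37767.t1 was in 2.01% of the cells outside those 3 clusters, but the ages differ between the 2 sets of cells. At 60 hpf, where most of its cells were, it was found in 1 of 91 cells of the 3 clusters (1.10%, 0.0278 to 5.97) against 3.77% (3.39 to 4.19) of the others, and at 56 hpf in 0 of 192 (0 to 1.90%) against 1.84% (1.44 to 2.31). At both ages the share in the 3 clusters was the lower, on 1 and 0 cells, and the intervals overlap. Overlap of intervals does not decide whether the shares differ, and a difference was not tested.

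**Figure D3:**
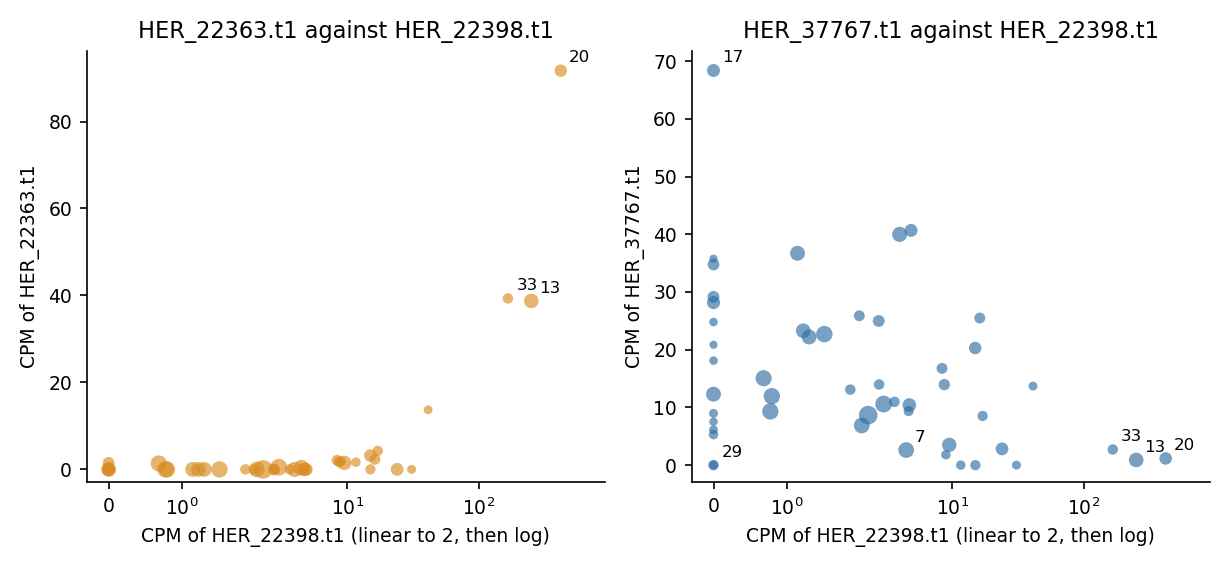
CPM of HER_22363.t1 (left) and of HER_37767.t1 (right) against those of HER_22398.t1 in each of 50 clusters (points, larger for clusters with more cells; the horizontal axis is linear to 2 and then logarithmic). Clusters 13, 20 and 33 stand apart on both HER_22363.t1 and HER_22398.t1, and HER_37767.t1, pooled over ages, is near 0 in them.

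Fewer cells fell in the leading clusters of HER_22398.t1 at the later ages. Clusters 13, 20 and 33 together made up 10.8%, 14.0%, 6.30%, 4.68% and 1.01% of the libraries in order of age. Inside them HER_22398.t1 was at 240, 299, 320, 208 and 110 CPM, with intervals of 213 to 270 at 36 hpf and 63.1 to 179 at 60 hpf. The share of the library in these clusters therefore changed more between 36 and 60 hpf than the level inside them did, and the last level rested on 16 UMIs in 91 cells.

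The 3 clusters had different ages. Cluster 13 was 7.79% of the 36 hpf library and 0.100% of the 60 hpf library, and HER_22398.t1 was found in 28.7%, 33.5%, 20%, 30.6% and 33.3% of its cells, the last in 9 cells. Cluster 20 was 1.20% of the library at 36 hpf and 3.53% at 56 hpf. In it HER_22398.t1 was at 430 CPM at 36 hpf, 617 CPM at 42 hpf, 511 CPM at 48 hpf, 173 CPM at 56 hpf and 63.3 CPM at 60 hpf. The intervals at 42 hpf (528 to 715) and 56 hpf (115 to 250) did not overlap, so in cluster 20 the level was lower at 56 hpf while its share of the library was not.

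**Figure D4:**
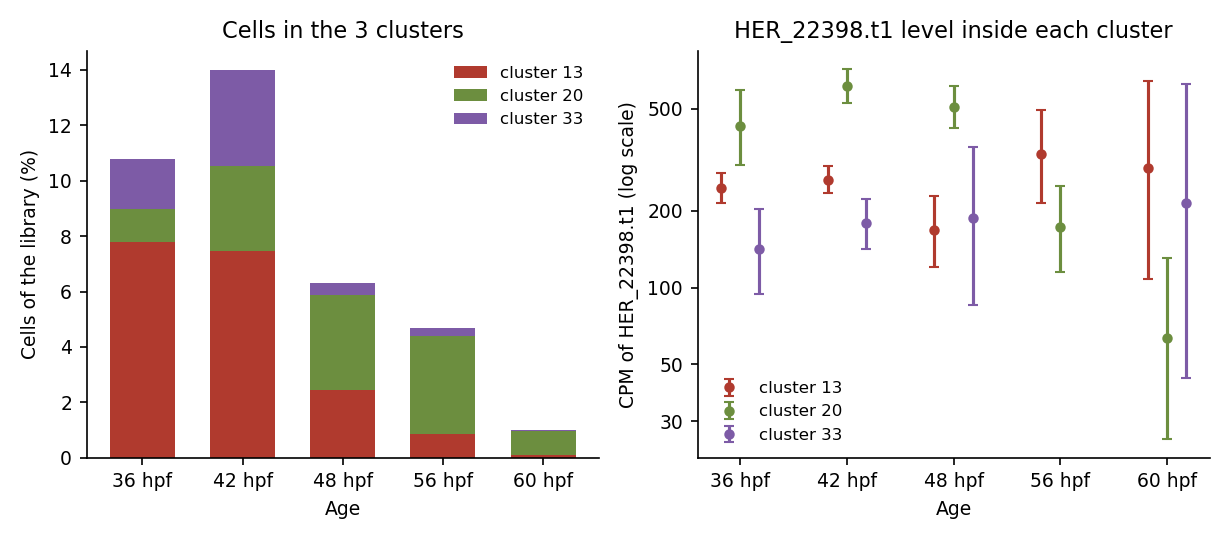
Left, percent of the cells of each library in clusters 13, 20 and 33 (stacked bars), and right, CPM of HER_22398.t1 inside each cluster (log axis, 95% Poisson intervals, clusters without a UMI left out). Together the clusters go from 10.8% of cells at 36 hpf to 1.01% at 60 hpf, and the level in cluster 20 goes from 617 at 42 hpf to 63.3 at 60 hpf.

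The cells with HER_22398.t1 were compared with cells of the same libraries without it, libraries weighted as the positive cells were. The genes with the largest ratio of CPM, among those found in at least 20% of the positive cells and with the other *hey* models not counted, were *snail* (17-fold), *acsc* (16.9-fold), *smadip* (13.3-fold), *hnrnpk* (9.62-fold) and *myt1* (9.11-fold). The *smadip* model in this and the later rankings was HER_39411.t1, and another, HER_39410.t1, was 6.41-fold the level in the other cells. *smadip* encodes a zinc finger homeodomain repressor and *myt1* a zinc finger factor of neural progenitors in vertebrates. *acsc* was found in 51.8% of HER_22398.t1 cells against 2.84% of the others, and after thinning in 24.6% against 1.06%. All 5 genes were higher in the positive cells in each of the 5 libraries, but the late libraries add few cells: *snail* was found in 1 of 46 positive cells at 56 hpf (2.17%, 0.055 to 11.5) and 2 of 21 at 60 hpf. *acsc* was found in 63.5% of positive cells at 42 hpf and in 19.0% (5.45 to 41.9), 4 of 21, at 60 hpf. Cells with HER_22363.t1 had *snail* (13-fold), *acsc* (11.5-fold), *timp4b* (11.3-fold), *smadip* (10.9-fold) and *myt1* (8.04-fold) in front, with *snail* higher in 3 and *timp4b* in 4 of the 5 libraries.

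The regulators that the study lists beside *hey* in putative rudiment ectoderm were mostly higher in the same cells. In HER_22398.t1 cells *paxA* was 16.3-fold, *mbx1* 6.29-fold, *tbx6/16* 5.38-fold, *tll* 4.83-fold and *giant* 3.06-fold the level in the other cells. In HER_37767.t1 cells the same 7 regulators, *acsc* and *snail* included, were at 0 to 0.53 of the level in the other cells. The 5 markers of verified rudiment ectoderm were not higher in cells of the other 2 models. In HER_22398.t1 cells 0 were at least 2-fold higher and 2 at least 2-fold lower, with a median ratio of 0.526. In HER_22363.t1 cells these were 0 and 3, with a median of 0.467. Of 4 posterior ectoderm markers, 0 were higher and 3 lower by that measure in HER_22398.t1 cells (median 0.223).

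To compare cells within the same clusters, the 483 HER_22398.t1 cells of clusters 13, 20 and 33 were also set beside the cells of those clusters without it, 1222 of 1227 of which had 500 UMIs to be thinned to. Of the positive cells 8.07% came from 56 and 60 hpf, and of the others 19.6%, so each share of the others is also given weighted to the ages and clusters of the positive cells, an alternative added after values were seen. *acsc* was found in 29.6% (25.6 to 33.9) against 9.57% (7.98 to 11.4; weighted 11.7%), *snail* in 13.5% against 4.01% (weighted 4.38%) and *smadip* in 32.9% against 16% (weighted 19.5%). The *smadip* models were summed here. Inside cluster 20 the gaps for *acsc*, *snail* and *smadip* were smaller. There *acsc* was found in 21.6% (15.6 to 28.6) against a weighted 16.4%. For *smadip* the shares were 44.9% (37.2 to 52.8) and 37.8%, and for *snail* 4.79% (2.09 to 9.22) and 2.15%. *soxC*, a gene of committed neural precursors in other animals, was found in 55.1% against 30.4% (weighted 34.7%), but inside cluster 20 in 58.1% against a weighted 58.1%. *giant* (24.0% against 24.5%, weighted 20.1%) and *tll* (9.73% against 10.2%, weighted 10.8%) differed less.

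Some other genes were seen less in the positive cells of the same clusters. In cluster 20 *phox2* was found in 2.40% (0.656 to 6.02) of 167 cells with HER_22398.t1 and in 18.8% (15.0 to 23.1) of 383 cells without it, after thinning. In that cluster 13.8% of the positive cells and 50.7% of the others came from 56 and 60 hpf. Weighted to the ages of the positive cells the share of the others was 9.34%, and at 36 to 48 hpf alone the shares were 2.08% (0.432 to 5.97) and 6.88% (3.71 to 11.5), intervals that overlap. *neurod* was found there in 10.8% (6.51 to 16.5) against 18.3% (14.5 to 22.5; weighted 18.6%), intervals that overlap. Over whole libraries, with clusters not held equal, *neurod* went the other way at every age. After thinning it was found in 1.55%, 1.64%, 13.8%, 2.17% and 4.76% of HER_22398.t1 cells in order of age. In the other cells it was found in 0.391%, 0.323%, 0.677%, 0.704% and 0.212%. At 56 and 60 hpf only 3 and 2 positive cells held *neurod* before thinning. *hesD* was found in 5.18% (3.38 to 7.55) of the positive cells of the 3 clusters against 14.2% (12.3 to 16.3; weighted 12.7%), and *hesA* in 6.63% (4.58 to 9.22) against 14.3% (12.4 to 16.4; weighted 13.8%). Inside cluster 20 *hesA* went the other way, at 3.59% (1.33 to 7.66) against a weighted 1.30%. There *hesD* was at 7.78% (4.21 to 12.9) against a weighted 9.97%. Both *hes* genes encode repressors related to Hey. In cluster 13 the division genes *cdk1* (28.8% against 12.8%) and *hmmr* (27.3% against 11.8%) were found in more of the positive cells, and the part of cell division in these shares was not tested.

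Markers of other cell types were mixed in HER_22398.t1 cells. All 4 blastocoelar and all 4 skeletal markers were lower by at least 2-fold in HER_22398.t1 cells, with median CPM ratios of 0.188 and 0.0332, and the 4 pigment markers had a median of 0.236. The 3 neural markers were at 0.565 to 0.705 of the level in the other cells. Other lists were split. Of the 6 larval ectoderm markers *tbx2/3* was 4.0-fold the level in the other cells, the only member at least 2-fold higher. At least 2-fold lower were 3 of the 6, and the 6 had a median ratio of 0.83. Of the 2 ciliary band markers found, *onecut* was at 1.74-fold and the other at 0.298. For comparison, HER_22398.t1 was found in 10 of 1615 cells with at least 2 pigment markers (0.619%, 0.297 to 1.14, median depth 1259 UMIs). That share was far below the 29.6% of cluster 13 (median depth 2344.5) and the 30.1% of cluster 20 (median depth 1257). In cells with at least 2 blastocoelar markers it was found in 15 of 1090 (1.38%, 0.772 to 2.26), and at 36 hpf in 4 of 94 (4.26%, 1.17 to 10.5). At 42 hpf it was found in 2.07% (0.429 to 5.93) of pigment marker cells and 3.45% (1.13 to 7.86) of blastocoelar marker cells. The pooled shares lean on 60 hpf cells, where the model was rare. The 0.929% of cluster 7 and the 0.459% outside the leading clusters were below the pooled 1.38% of blastocoelar marker cells. Outside the leading clusters 115 cells held the model, with at most 7 UMIs in a cell. The part of free RNA in these shares was not tested.

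HER_37767.t1 gave another picture in the same comparison. It was found in 43 of the 1615 pigment marker cells (2.66%, 1.93 to 3.57) and in 36 of 1090 blastocoelar marker cells (3.30%, 2.32 to 4.54), against 1.90% of all cells. At 60 hpf it was found in 4.25% (2.82 to 6.13) of pigment marker cells and 3.74% of all cells, so it was not seen to be poorer there. Of the blastocoelar marker cells 608 were from 60 hpf, where the model was highest, so the pooled shares are not of like ages. At 60 hpf it was found in 5.26% (3.63 to 7.35) of them, with a median depth of 1738.5 UMIs against 1020.5 in the library. At 56 hpf it was found in 0 of 143 (up to 2.55%) against 1.75% of all cells. The gene with the largest ratio of CPM in its cells, *clect_110*, was 1.67-fold higher, followed by *xxylt1L2* (1.59-fold), *dyrk2* (1.58-fold), *hypp_2798* (1.53-fold) and *echn1* (1.52-fold). None of the 793 genes ranked reached 2-fold.

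At 60 hpf the share of cells with HER_37767.t1 still differed between clusters. Among the 17 clusters with at least 200 cells it ranged from 0% to 5.89%, with a median of 3.90%. The highest was cluster 17, led by *kctd15*, *5ht2* and *fzd4*, where 33 of 560 cells (5.89%, 4.09 to 8.18) gave 68.6 CPM (48.3 to 94.6). Cluster 7, led by *egfi*, had 5 of 495 cells (1.01%, 0.329 to 2.34) and 4.48 CPM (1.45 to 10.5) although its cells were deeper, with a median of 1912 UMIs against 763. Cluster 29, led by *tck*, *atub13* and *efcab6L*, had 0 of 220 cells, a count that leaves room for up to 1.66%. With 1 UMI in most positive cells single cells cannot be called, and the part of free RNA in these shares was not tested.

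**Figure D5:**
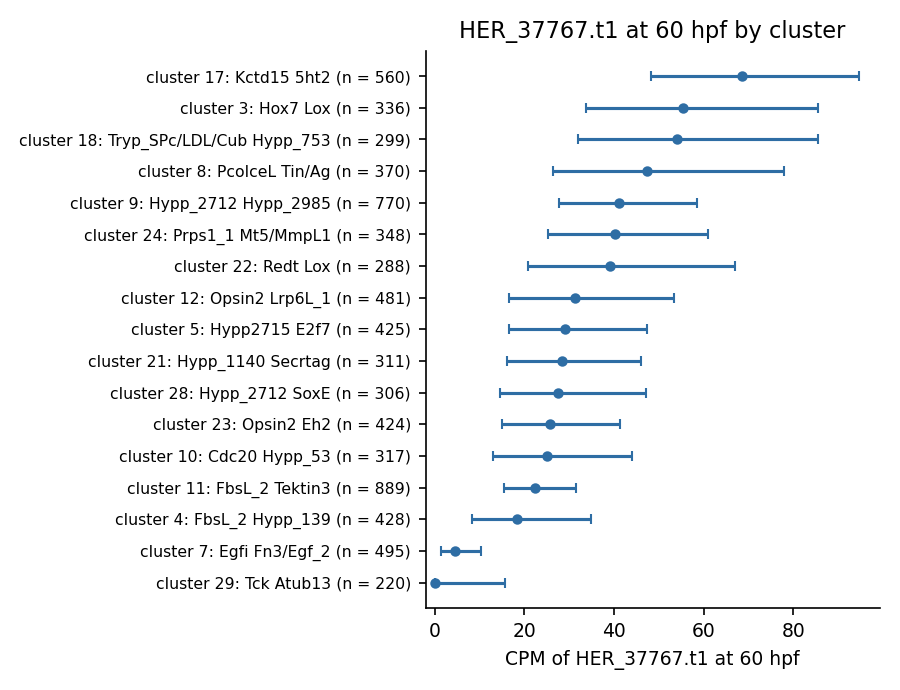
CPM of HER_37767.t1 at 60 hpf in the 17 clusters with at least 200 cells at that age, each named by number and its leading genes, with 95% Poisson intervals. Cluster 17 is highest at 68.6, and clusters 7 and 29 are lowest at 4.48 and 0.

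The level of HER_37767.t1 was also set side by side at 36 and 60 hpf inside clusters. Of the 19 clusters with at least 20 cells at both 36 and 60 hpf, 16 were higher at 60 hpf and 3 lower, but 10 of the 16 had 0 UMIs at 36 hpf, so a single UMI made them higher. In 3 of the 19 the interval of the ratio lay above 1. Pooled over these clusters, 27 UMIs at 36 hpf and 128 at 60 hpf gave a CPM ratio of 5.01 (3.29 to 7.90), beside the 4.45-fold of the whole libraries. The pooled cells are a part of the same libraries, and their mix of clusters differed between the ages. Cluster 0 had 367 cells at 36 hpf and 26 at 60 hpf, and cluster 8 had 26 and 370. The pooled ratio is therefore not a difference inside clusters, and nothing is read from its nearness to the other. The counts are too few to compare the ratios of single clusters.

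Across the 50 clusters, the genes whose log2(CPM + 10) followed HER_22398.t1 most closely among 7592 genes were *acsc* (r = 0.87), *smadip* (0.78), *cecr2L_2* (0.77), *amidL_1* (0.77) and *paxA* (0.76). For HER_22363.t1 they were *acsc* (0.83), *amidL_1* (0.76), *paxA* (0.74), *fbox11* (0.74) and *smadip* (0.72), and its r with HER_22398.t1 was 0.92. For HER_37767.t1 the first 4 were *fbx15* (0.78), *tsen54L* (0.78), *clk2* (0.73) and *hypp_159* (0.73), and its r with HER_22398.t1 was -0.44. The points are clusters that share libraries and differ in depth, so these are descriptions.

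Genes of the Notch pathway did not move as one between 36 and 60 hpf. Of 72 symbols listed, 22 were matched by 46 features, and 22 of those features passed the filter on low counts. Of these 5 were higher at 60 hpf by 2-fold or more and 3 were lower, beside 10.2% and 12% of all features, and their median log2 difference was 0.12. The higher features were *dll1* (HER_526.t1), *numb*, *hesD* and 2 models named *notch1-21*, whose standing as receptors the files do not give, and the lower were *delta*, *nrarp* and *hesA*.

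The receptor and ligands differed. *notch* (HER_46649.t1), the receptor, had normalized counts of 576, 622, 291, 340 and 552 in order of age, so it was lowest at 48 hpf and at like levels at both ends (ratio 0.958, 0.864 to 1.06). *delta* (HER_17367.t1), a ligand, had 119, 151, 78.7, 70.9 and 52.8, peaking at 42 hpf like HER_22398.t1 and ending at 0.445 of its first level (0.334 to 0.589). *serrate* had 74 UMIs in all, and its ratio of 60 to 36 hpf was 1.91 (0.898 to 4.40).

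Among effectors and targets, *suH*, which encodes the DNA-binding partner of cleaved Notch, was level (ratio 1.10, 0.935 to 1.30). *nrarp*, a feedback target of Notch in vertebrates, was lower at 60 hpf (ratio 0.315, 0.221 to 0.444), as was *hesA* (0.293, 0.264 to 0.325). *hesD* was higher (2.31, 2.25 to 2.36). *gro*, the corepressor that hairy-related proteins recruit, was at a ratio of 0.873 (0.800 to 0.953).

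In HER_22398.t1 cells *delta* was found in 14.5% against 1.77% of the other cells of the same libraries, and after thinning in 3.51% against 0.51%. *suH* was found in 15.7% against 4.61%, and after thinning in 2.84% against 1.52%. *notch* itself was found in 24.1% against 8.89%, and after thinning in 7.53% against 2.62%. In cluster 13 *delta* was found in 20% (15.3 to 25.4) of cells with HER_22398.t1 and 6.47% (4.66 to 8.71) of those without. After thinning these were 3.08% and 1.78%, on 8 and 11 cells, and could not be told apart. *hesD* was at 0.22 of the level of the other cells.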

How the data were processed

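Cell-by-gene UMI counts were the files used, 1 table for each of 5 libraries, as the authors deposited them after Cell Ranger 3.1.0 (the submitters' notes also name Seurat 4.0). The genome build and the treatment of reads that fit several gene models are not given in the sources used here. Cells with over 200 genes, under 4000 genes and under 10000 UMIs were kept, as in the study. The *hey* models and the gene lists were chosen with earlier results of these data known.

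Counts summed over each library were divided by median-of-ratios size factors (DESeq2 1.42.0), and edgeR 4.0.16 gave TMM factors as an alternative. No model was fitted across libraries, since each age has 1. Intervals are exact Poisson, exact binomial (Clopper-Pearson) or conditional binomial at 95%, also for a count of 0. Differences were taken on log2(normalized count + 1) where a feature's mean normalized count reached 10. Clustering followed the study's settings where stated (SCTransform with 6000 variable features, ribosomal share regressed, Louvain resolution 3) in Seurat 5.3.0 with R 4.3.3, with *hey* left out and a native Poisson fit. Doublets were not called. Cluster markers counted when found in at least 5% of cells and at least 2-fold higher with 10 CPM added, a rule set after seeing the data.

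Named genes were every *hey* model, the 5 genes with the largest CPM ratio in cells with each model (found in at least 20% of them), the 5 with the most similar cluster pattern (mean normalized count of at least 50, 10 CPM added), the Notch list, the cell type markers and the rudiment regulators the study lists. Some genes that these rules name are not reported here. A few genes set beside *hey* inside its leading clusters, among them *neurod*, *phox2*, *hesA*, *hesD* and the division genes, and the cell sets with at least 2 markers were added after values were seen. Scripts were tested on simulated data with known answers.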

Additional observations from a re-analysis of the deposited data

How the results depend on the processing

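Of 122 values recomputed under alternatives, 77 stayed within counting error (for counts, within 1.5 times) and 45 moved beyond it. Most of these values are levels, shares or counts, which have no direction to change. The log2 differences of the *hey* models have a direction and kept it. Within the leading clusters *giant* in positive cells (24.0%) was below the unweighted share of the others (24.5%) and above the weighted share (20.1%). Giving each cell equal weight set the 42 hpf levels of HER_22363.t1 and HER_22398.t1 at 77.3 and 364. Cells with over 500 genes alone set HER_22398.t1 at 458 at 42 hpf and HER_37767.t1 at 171 at 60 hpf, and gave shares of cells of 6.97% and 5.12%. CPM scaling set HER_22398.t1 at 476. A pseudocount of 10 set the log2 differences of HER_22363.t1 and HER_22398.t1 at -2.28 and -3.44. Thinning to 500 UMIs set the peak shares of HER_22363.t1, HER_22398.t1 and HER_37767.t1 at 0.375%, 1.85% and 1.47%, and to 1000 UMIs at 0.812%, 3.86% and 2.30%. The ratio of co-detection was 10.3 within 10 bins of depth, 23.3 after thinning and 2.41 within clusters (chosen after seeing the data), and 16.5 to 23.9 with each library left out, highest without 42 hpf. Leading clusters held 84.9% of HER_22398.t1 cells and 33.7% of HER_37767.t1 cells at resolution 1, and 75.1% and 31.1% on log-normalized counts. At resolution 1, with its own numbering, they were 7, 18 and 23 for HER_22363.t1 but 7, 18 and 12 for HER_22398.t1. With each library left out the leading clusters held 82.8% to 90.5% for HER_22363.t1, 76.0% to 82.1% for HER_22398.t1 and 20.8% to 27.9% for HER_37767.t1. *acsc* was found in 24.6% of HER_22398.t1 cells after thinning, and in 43.8% to 54.6% with each library left out. Without the count filter 8 Notch list members were higher, beside 13.8% of all features. Of the 5 genes most like HER_22363.t1, HER_22398.t1 and HER_37767.t1, 3, 3 and 1 recurred at resolution 1. On log-normalized counts 3 and 1 recurred for HER_22398.t1 and HER_37767.t1, and with 1 CPM added 1, 3 and 2, so these rankings are loose. The causes were not tested. No paired analysis was possible because each age has 1 library. HER_22363.t1 at 60 hpf (2 UMIs) and HER_37767.t1 within single clusters are limited by depth.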
